A study of Mus musculus with 2 samples.

Results

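Naive-like CD8 T cells were taken from the single-cell data as cells that carried T cell and CD8 RNA and almost no cytotoxic RNA. A cell entered when it held 2 or more unique molecular identifiers (UMIs, tags that mark single captured transcripts) of Cd3e, Cd3d and Cd3g together, 1 or more of Cd8a and Cd8b1 together, none of Cd4, Foxp3, Cd79a or Ms4a1, and 0 or 1 of the cytotoxic genes Ccl5 and Nkg7 together. The gate held 212 of the 8451 cells that passed quality limits (at least 200 genes, and no more than 15% of UMIs mitochondrial), with 89 cells in the BLM library and 123 in the naive library. The cells were thus selected on their measured UMIs of these 11 genes. The levels of the gate genes are a description, and so is every contrast with a population cut from the same cells.

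The study profiled living CD45+ leukocytes that had been sorted from C57BL/6N mouse lungs with the BD Rhapsody system, which captures cells in microwells. The BLM library came from lungs taken 15 days after an intratracheal dose of bleomycin (50 µg in 50 µl PBS, given to mice aged 10 to 16 weeks), a drug whose lung injury is followed by fibrosis. The naive library came from mice that had no treatment, and their age was not given in the sources used here. Cells of 3 mice were pooled in equal numbers for each library, single cells could not be assigned to a mouse here, and no library had a replicate. Differences therefore describe these 2 libraries, every interval below is a 95% interval that covers counting error only, and group, sequencing run and library preparation cannot be told apart.

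CD8 T cells recognise peptides on MHC class I molecules, and before they meet their antigen they circulate between blood, lymph and lymphoid tissue. In that naive state the transcription factors Lef1 and Tcf7 hold the T cell programme, Klf2 maintains the egress receptor S1pr1, and Ccr7 guides the cell into lymph nodes. After priming, CD8 T cells gain cytotoxic genes such as Nkg7 and granzymes and the chemokine Ccl5, and central memory cells may keep Ccr7. Naive-phenotype T cells in a dissociated lung may lie in its vessels or in its tissue, a distinction that these libraries do not hold.

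The 89 BLM cells summed to 246720 UMIs and the 123 naive cells to 382121. Median depth was 2630 UMIs and 1199 genes in BLM and 2778 UMIs and 1329 genes in naive, so the 2 sets were of like depth, with 8.96% and 8.92% mitochondrial UMIs. Across the whole libraries 22 barcodes occurred in both. One of these barcodes belonged to a naive-like CD8 cell, and no barcode was shared between naive-like cells of the 2 libraries. Doublets were not removed by a caller from the gated cells, and leaving out the 3% of cells with the highest Scrublet scores kept 85 of the BLM and 120 of the naive cells.

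The naive-like cells were a smaller share of the BLM library. They made up 1.97% of the cells in BLM (89 of 4526, 1.58 to 2.41%) and 3.13% in naive (123 of 3925, 2.61 to 3.73%), and the intervals did not overlap. Of all cells that passed the CD8 part of the gate, 40.1% were naive-like in BLM (89 of 222, 33.6 to 46.9%) and 65.1% in naive (123 of 189, 57.8 to 71.9%). The remaining CD8-gated cells, with 2 or more Ccl5 and Nkg7 UMIs, are called effector or memory CD8 cells below and numbered 133 and 66. Shares sum to the whole, so a larger cytotoxic share lowers the naive-like share.

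The cytotoxic limit depends on depth. When every cell was thinned to 1000 UMIs before gating, the naive-like share of the CD8-gated cells was 61.9% in BLM and 84.6% in naive, and that of all cells was 1.04% and 1.53%. The BLM share stayed the lower one. With no Ccl5 or Nkg7 UMI allowed, the shares of CD8-gated cells were 25.7% and 39.7%.

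**Figure D1:**
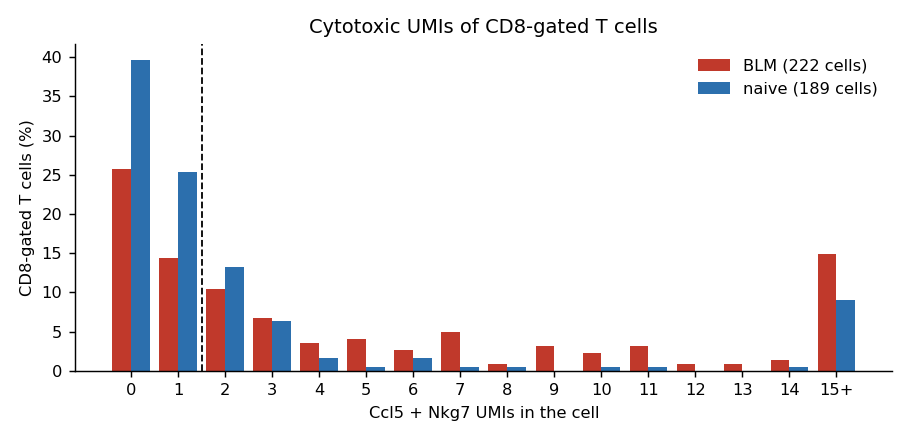
Share of CD8-gated T cells (vertical axis, %) with each number of Ccl5 and Nkg7 UMIs in the cell (horizontal axis), for the BLM library (222 cells, red) and the naive library (189 cells, blue). Cells left of the dashed line are naive-like, 40.1% of the BLM bars and 65.1% of the naive bars.

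Just inside and just outside the cytotoxic limit the cells differed more in Ly6c2 than in Lef1. Cells with 0, 1, 2 and 3 or more Ccl5 and Nkg7 UMIs numbered 57, 32, 23 and 110 in BLM and 75, 48, 25 and 41 in naive. Ly6c2, a surface protein of memory and effector CD8 cells whose gene is nearly identical to Ly6c1, was at 224, 806, 1850 and 1960 CPM over these steps in BLM and at 165, 237, 426 and 1340 CPM in naive, where CPM means UMIs per 1000000 UMIs of the same cells. Lef1 was at 380, 585, 334 and 274 CPM in BLM and at 602, 450, 501 and 266 CPM in naive. Against the cells with no cytotoxic UMI, those with 1 held more Ly6c2 in both libraries, and more Lef1 in BLM but less in naive.

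Of the 4 marker genes Cd8a and Cd8b1 were part of the rule, so that Lef1 and Ccr7 alone could check the label. As a description of the gate, Cd8b1, the CD8 beta chain, had a UMI in 80.9% of BLM and 89.4% of naive members, and Cd8a, the alpha chain, in 65.2% and 75.6%. In the B cells of the same libraries, which should lack them (median depth 1785 and 2060 UMIs), Cd8b1 was seen in 0.475% (of 632 in BLM) and 1.03% (of 875 in naive). Lef1 was present in 60.7% of BLM and 72.4% of naive members, against 1.58% and 1.83% of B cells. Ccr7 was present in 75.3% and 82.9%, but B cells express Ccr7 themselves (52.2% and 64.8%), so that gene has no background there. Thinned to 1000 UMIs per cell, the shares of members with a Lef1 UMI were 35.2% and 42.5%, and those with a Ccr7 UMI were 50.3% and 53.4%. B cells give a background and do not tell naive-like from cytotoxic CD8 cells. CD8-gated cells with 3 or more Ccl5 and Nkg7 UMIs were deeper (medians of 3369 and 3303 UMIs). Before thinning Lef1 was present in 53.6% of these 110 BLM and 41.5% of these 41 naive cells, and Ccr7 in 57.3% and 65.9%.

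Summed over cells, the 7 naive T cell genes plotted by gate were within 2-fold of each other in the 2 libraries, and of these Tcf7 and Klf2 had intervals that did not overlap. Lef1 (chromosome 3, 131110297 to 131224357 in GRCm38.p6) stood at 462 CPM in BLM (114 UMIs) and 536 CPM in naive (205 UMIs), with overlapping intervals. Ccr7 stood at 782 and 856 CPM. Il7r, the receptor for the survival cytokine interleukin 7, was at 965 and 1060 CPM, and Satb1, a chromatin organiser of T cells, had 247 UMIs in 83.1% of BLM members and 403 in 91.9% of naive members.

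Tcf7 was lower in BLM, at 349 CPM (86 UMIs) against 539 CPM (206 UMIs), a log2 difference of -0.63 (-1.01 to -0.26). Klf2 was higher, at 1140 CPM against 882 CPM, a log2 difference of 0.37 (0.14 to 0.60). Neither difference reached 2-fold. S1pr1 was at 681 and 620 CPM, with overlapping intervals.

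**Figure D2:**
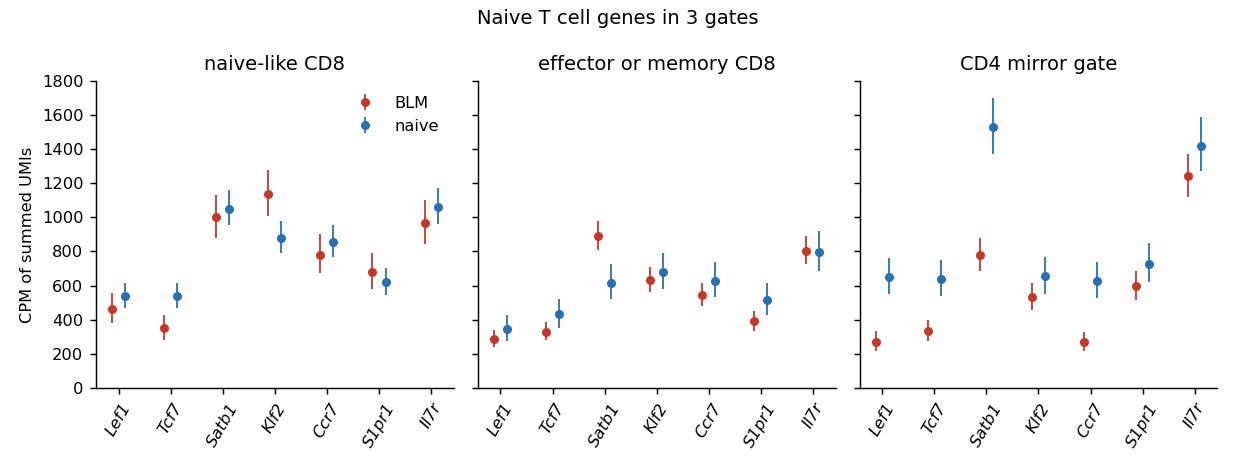
Level in CPM of summed UMIs (vertical axis, linear) of 7 naive T cell genes in the naive-like CD8 cells, the effector or memory CD8 cells and the CD4 mirror gate, for BLM (red) and naive (blue), with exact Poisson 95% intervals. In the naive-like cells Tcf7 (349 against 539 CPM) and Klf2 (1140 against 882 CPM) are the genes whose intervals do not overlap between libraries.

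Not every member carried the naive genes. Of the 89 BLM cells, 13 had no UMI of Lef1 or Ccr7, against 6 of the 123 naive cells. The 13 BLM cells held Klf2 at 359 CPM and Cd44, an adhesion receptor that is high on antigen-experienced cells, at 407 CPM. The other 76 BLM cells held Klf2 at 1300 CPM and Cd44 at 92.7 CPM. The 13 had 17 Cd44 UMIs in all and include a Lyz2-rich cell of 8896 UMIs. They also include the 1 BLM member with UMIs of gamma delta receptor genes, which had 9144 UMIs, 5 of them Cd44. In naive the 6 cells without either gene held Klf2 at 347 CPM against 916 CPM in the other 117, and Cd44 at 174 against 164 CPM. These 6 also held 10 UMIs of the gamma delta receptor gene Trdc and 22 of the granzyme gene Gzmb. Both Lef1 and Ccr7 were seen in 45 BLM and 74 naive members.

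Markers of other lymphocytes were few but not all at 0. The B cell genes Cd79a and Ms4a1, with Cd4 and Foxp3, are at 0 by rule, and the killer cell receptor Ncr1 was at 0 in both libraries. The NK genes Klrb1c and Klre1 had 0 UMIs in BLM and 3 and 1 in naive. At least 1 of the plasma cell markers Jchain, Mzb1 and Igkc had a UMI in 20.2% of BLM and 55.3% of naive members, nearly all of it Igkc, which is described with the lower genes. Of the cytotoxic genes the rule did not use, Gzmk had 0 UMIs in both libraries, which allows a level of up to 12.2 CPM in BLM and 7.85 CPM in naive at 3 counts, and Prf1 (perforin) had 6 and 10 UMIs. Gzmb had 20 and 25 UMIs, of which 17 and 22 lay in 1 cell of each library.

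Gamma delta T cells can carry CD8 alpha. UMIs of the constant genes Trdc, Tcrg-C1, Tcrg-C2 or Tcrg-C4 were found in 1 BLM and 6 naive members, and Trdc itself had 0 UMIs in BLM and 18 in naive. Without those 7 cells the naive-like share was 1.94% in BLM and 2.98% in naive.

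Variable genes of the receptor chains were rarely captured. UMIs of Trbv genes numbered 15 in BLM, over 8 genes in 14 cells, and 33 in naive, over 14 genes in 31 cells. The most frequent were Trbv3 with 4 UMIs in BLM and Trbv12-2 with 7 in naive. At these counts no expanded Trbv gene was detectable.

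Myeloid RNA was spread thinly over most members and concentrated in a few. Lyz2, the macrophage and neutrophil lysozyme, had a UMI in 80.9% of BLM and 91.9% of naive members, close to the 76.6% and 80.8% seen in B cells. The 8 macrophage markers summed to 1890 CPM in BLM and 2320 CPM in naive, and the 4 neutrophil markers to 365 and 89.0 CPM, with none of these 12 genes at 0. Of the 5 dendritic markers Xcr1, Clec9a, Flt3 and Siglech were at 0 in BLM, and their sum with H2-Aa was 170 CPM in BLM and 518 CPM in naive.

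A few members held 10 or more UMIs of 1 of the genes Lyz2, Il1b, Fn1, H2-Aa, Cst3 and S100a9, a limit set after the data were seen. These 5 BLM and 3 naive cells held 9.45% and 8.11% of all UMIs of the members. They carried 85.0% of the Il1b and 75.4% of the Fn1 UMIs in BLM, and 61.3% of the H2-Aa and 61.5% of the Cst3 UMIs in naive. One BLM cell with 8896 UMIs had 122 Lyz2 and 39 Fn1 UMIs and none of Lef1 or Ccr7. One naive cell with 15503 UMIs had 310 Lyz2 UMIs, and another with 7702 UMIs had 77 H2-Aa and 107 Cst3 UMIs. Values below are therefore given with all 212 cells and, for many of the genes and lists, also with the other 204.

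The comparison of BLM with naive asked how naive-like CD8 cells of injured lungs differed from those of untreated lungs. Of the 12 named genes higher in BLM, 4 encode regulators that cytokines or stress induce (Nfkbiz, Socs3, Zfp36, Gadd45b) and 8 are known from myeloid cells (Fn1, Hdc, Il1b, Spp1, Cxcl2, Apoe, Retnlg, S100a9). Nfkbiz, Socs3 and Zfp36 were seen in 51.7%, 41.6% and 67.4% of BLM members, and Gadd45b in 12 members, fewer than Spp1 (18) or Apoe (20). Of the 12 named lower genes 9 are known from antigen-presenting cells, macrophages or B cells (H2-Aa, H2-Eb1, Cst3, Cd83, Mpeg1, Plet1, Atp6v0d2, Abcg1, Igkc). This grouping was made after the values were seen and rests on no fixed list.

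In all, 4581 genes outside the gate had 20 or more UMIs over both libraries. Of these, 134 were 2-fold or more higher in BLM (2.93%) and 316 were 2-fold or more lower (6.9%), with a median log2 difference of -0.08. The interval lay above 0 for 263 genes and below 0 for 300. The 12 genes at each end that are named here stood farthest from 0 by the nearer end of the interval, and had to be detected in at least 10% of the cells on their higher side.

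**Figure D3:**
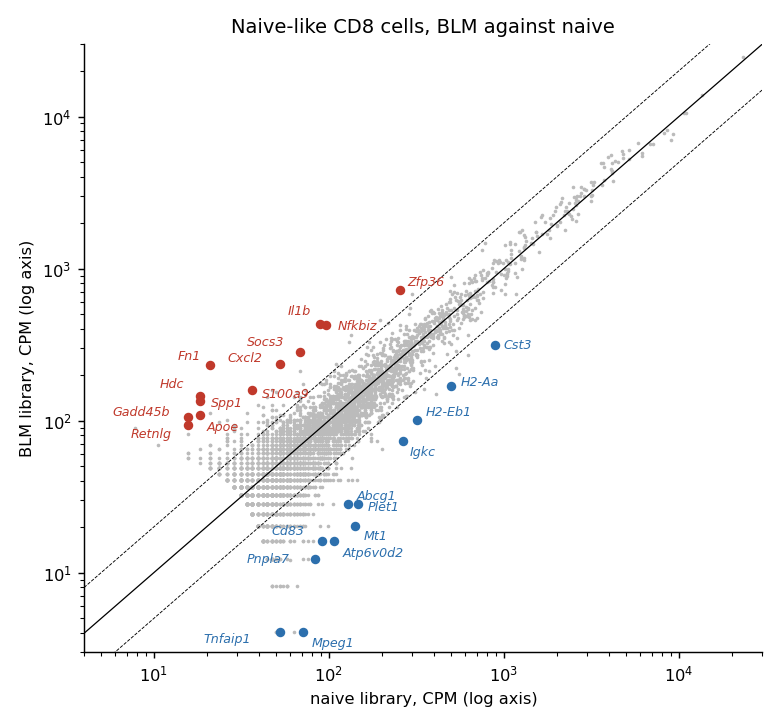
Level in CPM of each of the 4581 ranked genes in the naive-like CD8 cells of the naive library (horizontal, log axis) and of the BLM library (vertical, log axis), with counts of 0 drawn at 3 UMIs, the solid line at equal levels and dashed lines at 2-fold. The 12 named genes higher in BLM (red) include Zfp36 at 726 against 254 CPM, and the 12 lower (blue) include Cst3 at 312 against 885 CPM.

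Nfkbiz (chromosome 16, 55811375 to 55838954), an inducible nuclear partner of NF-kB, had 105 UMIs in BLM and 37 in naive. That is 426 against 96.8 CPM, a log2 difference of 2.14 (1.58 to 2.72). It was seen in 51.7% of BLM and 20.3% of naive members, and in 28.6% and 8.13% after thinning. Without the 8 myeloid-rich cells the difference was 1.86 (1.21 to 2.54). It was 0.83 in the 6 BLM and 8 naive members that had no UMI of Lyz2, S100a8, S100a9, Spp1, C1qa, C1qb or Apoe.

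Socs3 (chromosome 11, 117966079 to 117970336), the feedback inhibitor of interleukin 6 family receptors, had 70 UMIs in BLM and 26 in naive, or 284 against 68.0 CPM. The log2 difference was 2.06 (1.39 to 2.77), and 2.11 without the myeloid-rich cells. A UMI was present in 41.6% of BLM and 17.1% of naive members, or 21.5% and 6.46% after thinning. Its relative Socs1, which restrains interferon and common gamma chain cytokine signals, had 35 and 17 UMIs, a log2 difference of 1.67 (0.80 to 2.60).

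Zfp36 (chromosome 7, 28376784 to 28379228), which encodes the mRNA-destabilising protein tristetraprolin, had 179 UMIs in BLM and 97 in naive. Its level was 726 against 254 CPM, a log2 difference of 1.52 (1.15 to 1.89), and 67.4% of BLM and 47.2% of naive members had a UMI. In the 6 and 8 members with none of the 7 myeloid genes listed for Nfkbiz the direction turned, to -0.58. Gadd45b (chromosome 10, 80930091 to 80932204), a stress-inducible gene, was sparser at 26 and 6 UMIs, with a log2 difference of 2.75 (1.43 to 4.32). It was seen in 12 BLM and 3 naive members.

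The promoters of Socs3 and Zfp36 are shown because these genes were higher in BLM in both CD8 populations and their promoter windows held STAT-type and NF-kB-type matches. Neither window held an AP-1-type or TATA-type match, the other motifs searched. The sequences are 250 bases of RefSeq promoters (GRCm38.p6), 5′ to 3′ on the minus strand, on which both genes lie. Matches are in capitals. Each window ends at the start that the promoter set gives. For Zfp36 that start is the edge of the gene span given above, at 28379228. For Socs3 the window lies inside the gene span given above (117966079 to 117970336), so its matches are not upstream of that span. They are Socs3 at chr11:117969367-117969616, with a STAT-type match that comes first and an NF-kB-type match after it, and Zfp36 at chr7:28379229-28379478, with the NF-kB-type match first and the STAT-type match close to the gene start.
Socs3: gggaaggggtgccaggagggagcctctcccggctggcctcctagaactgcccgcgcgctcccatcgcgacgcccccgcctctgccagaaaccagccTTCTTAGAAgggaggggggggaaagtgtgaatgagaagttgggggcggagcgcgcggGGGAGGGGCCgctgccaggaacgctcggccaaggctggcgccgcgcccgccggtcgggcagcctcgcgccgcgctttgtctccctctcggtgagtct
Zfp36: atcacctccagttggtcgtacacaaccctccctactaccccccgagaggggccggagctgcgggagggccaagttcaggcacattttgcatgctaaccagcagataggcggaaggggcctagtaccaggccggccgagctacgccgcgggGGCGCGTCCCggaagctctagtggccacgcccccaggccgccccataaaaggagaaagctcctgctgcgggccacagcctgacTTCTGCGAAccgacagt

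The STAT-type motif searched was TTCNNNGAA, the NF-kB-type motif GGGANNNNCC, the AP-1-type motif TGANTCA and the TATA-type motif TATAAA. Both strands were searched in the 250 bases before each start that the promoter set gives. Of the 12 genes higher in BLM 10 had a promoter in the RefSeq table. The STAT-type motif was in 2 of the 10 (Socs3 and Zfp36) and in 7.02% of all 32851 promoters, and the NF-kB-type motif was in 4 of the 10 (Apoe, Cxcl2, Socs3 and Zfp36) and in 17.6% of all. The AP-1-type motif was in 0 of the 10 (6.75% of all) and the TATA-type motif in 4 (Apoe, Gadd45b, Il1b and Spp1, 12.4% of all). Of the 8 lower genes with a promoter 0, 2, 1 and 1 held the motifs in the same order. A match describes these letters and is not a measured binding site, and with so few genes the shares were not compared.

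Nfkbia and Cd69, from the list of activation and immediate early genes, and Rgs1, from the list of tissue residency genes, were 2-fold or more higher as well. Nfkbia, the inhibitor that NF-kB itself induces, was at 685 CPM in BLM and 298 CPM in naive, a log2 difference of 1.20 (0.85 to 1.55), and 0.99 without the myeloid-rich cells. Cd69, an early activation antigen that retains T cells in tissue, was at 211 and 68.0 CPM, a log2 difference of 1.63 (0.93 to 2.37). Rgs1, which dampens chemokine receptor signals, was at 365 and 133 CPM, a log2 difference of 1.45 (0.94 to 1.98).

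The 6 genes Nfkbiz, Socs3, Zfp36, Gadd45b, Nfkbia and Cd69 were then counted within single cells, a set assembled after their values were seen. All 6 were chosen as higher in BLM in these cells, so that the direction of their shares is fixed by the choice and the shares only describe how the UMIs were spread over cells. At least 3 of the 6 were detected in 52.8% of BLM members (47 of 89, 41.9 to 63.5%) and in 15.4% of naive members (19 of 123, 9.56 to 23.1%). Without the myeloid-rich cells the shares were 51.2% and 13.3%.

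**Figure D4:**
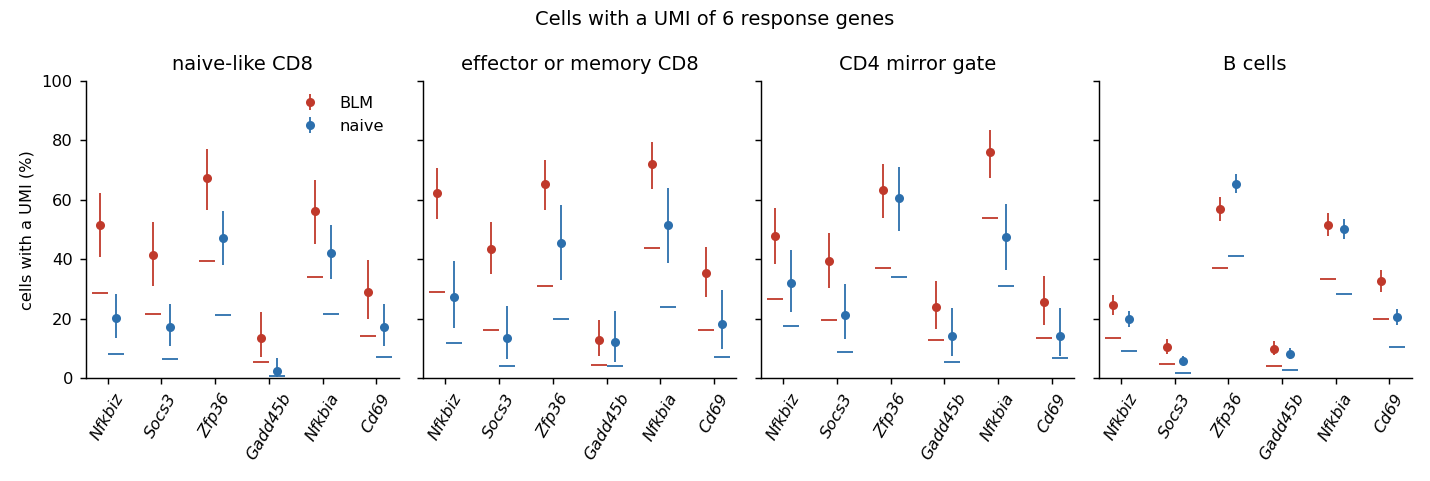
Share of cells with a UMI (vertical axis, %) of 6 response genes in 4 populations, for BLM (red) and naive (blue), as points with exact 95% intervals and, as dashes, after thinning to 1000 UMIs per cell. In the naive-like CD8 cells Nfkbiz was seen in 51.7% against 20.3% and Socs3 in 41.6% against 17.1% of cells, whereas in B cells Zfp36 was seen in 57.0% of BLM and 65.5% of naive cells.

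In the other populations, on which the 6 genes were not chosen, the shares were as follows. At least 3 of the 6 genes were found in 63.9% of BLM and 21.2% of naive effector or memory CD8 cells, and in 52.1% and 23.8% of the cells of a CD4 mirror gate (the same rule with Cd4 in place of the CD8 genes). In B cells the shares were 28.8% and 22.3%, and 22.5% and 10.4% over the 333 and 269 B cells under the limit of 10 UMIs of the 6 myeloid and dendritic genes. B cells express H2-Aa, 1 of those 6 genes, themselves (6448 BLM and 11594 naive UMIs). The limit therefore also removed B cells on their own RNA, and it kept 333 of 632 in BLM and 269 of 875 in naive. The last 2 shares describe B cells selected in this way. Whether the populations differ from each other in these shares was not tested.

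By gene, the summed levels of the populations went different ways. For Socs3 the log2 difference of BLM against naive was 2.06 in the naive-like cells, 2.01 in the effector or memory CD8 cells, 0.91 in the CD4 mirror gate and 0.81 in B cells. For Nfkbiz it was 2.14, 1.24, 0.14 and 0.15 in the same order. Zfp36 was higher in BLM in both CD8 populations (1.52 and 0.78) and lower in BLM in the CD4 mirror gate (-0.39) and in B cells (-0.30). In the naive mirror gate 4 of 84 cells held 10 or more UMIs of 1 of the 6 myeloid and dendritic genes. These 4 held 14.6% of its UMIs, and 3 of 117 such cells held 5.95% in BLM. The mirror-gate values by gene include these cells. Cd69 was higher in BLM in all 4, with log2 differences of 1.63, 1.5, 1.36 and 1.23.

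The immediate early genes as a group moved less than these examples. Of 32 genes on the list 27 were ranked, 4 were 2-fold or more higher in BLM (Cd69, Nfkbia, Zfp36, Gadd45b) and 1 was lower (Cd83), with a median log2 difference of 0.28 against -0.08 over all ranked genes, of which 2.93% were higher and 6.9% lower. Without the 8 myeloid-rich cells 25 were ranked, 3 higher and 0 lower (median 0.23). Fos had 218 and 191 UMIs, with a log2 difference of 0.82 (0.54 to 1.11). Egr1 and Nr4a1, which follow T cell receptor signals closely, had log2 differences of 0.08 (-0.67 to 0.81) and 0.38 (0.00 to 0.77). Klf6 and Dusp1 were both at -0.02.

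Myeloid genes made up the other 8 of the 12 higher genes. The 8 myeloid-rich cells were chosen on UMIs of Fn1, Il1b, S100a9, H2-Aa, Cst3 and Lyz2, so that values of these genes without them move towards 0 in part by that choice. Fn1 (fibronectin) had 57 BLM and 8 naive UMIs, which is a log2 difference of 3.46 (2.39 to 4.74), but 39 of the 57 lay in 1 cell. Il1b (interleukin 1 beta) had 107 and 34 UMIs, with 46 and 22 in 1 cell. Without the myeloid-rich cells the log2 difference of Fn1 was 2.46 (0.79 to 4.52) and that of Il1b 1.19 (-0.01 to 2.45). S100a9, a neutrophil calcium-binding protein, went from 2.11 to 0.54 (-0.72 to 1.79) and Hdc, the histamine-forming enzyme, from 2.99 to 0.65 (-1.09 to 2.39), so that neither interval stayed clear of 0.

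Spp1 (osteopontin) and Apoe are both made by macrophages of injured lungs, and Apoe was less bound to those cells than Spp1. Spp1 had 33 UMIs in 18 BLM members and 7 in 3 naive members, a log2 difference of 2.87 (1.67 to 4.29). Without the myeloid-rich cells it had 15 against 2 UMIs, under the minimum of 20 for a ranked gene. Apoe had 27 UMIs in 20 BLM members and 7 in 7 naive members, 2.58 (1.34 to 4.02), and 19 against 7 without them. The neutrophil list had 4 of its 4 ranked genes 2-fold or more higher in BLM, against 2.93% of all ranked genes. Its median was 2.20, and 0.87 over the 2 genes still ranked without those cells. The rise of Spp1 and Fn1 was not particular to the naive-like cells. In effector or memory CD8 cells, the CD4 mirror gate and B cells Spp1 was at 2.98, 2.68 and 3.11. Its naive counts of 0 in the first 2 were set to the floor. Fn1 was at 1.86, 1.51 and 1.46 in the same order, and Apoe at 2.23, -3.47 and 1.48. Il1b, Cxcl2, Retnlg and S100a9 were each lower in BLM in at least 1 of these populations. The part of other cells' RNA in these values was not tested.

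**Figure D5:**
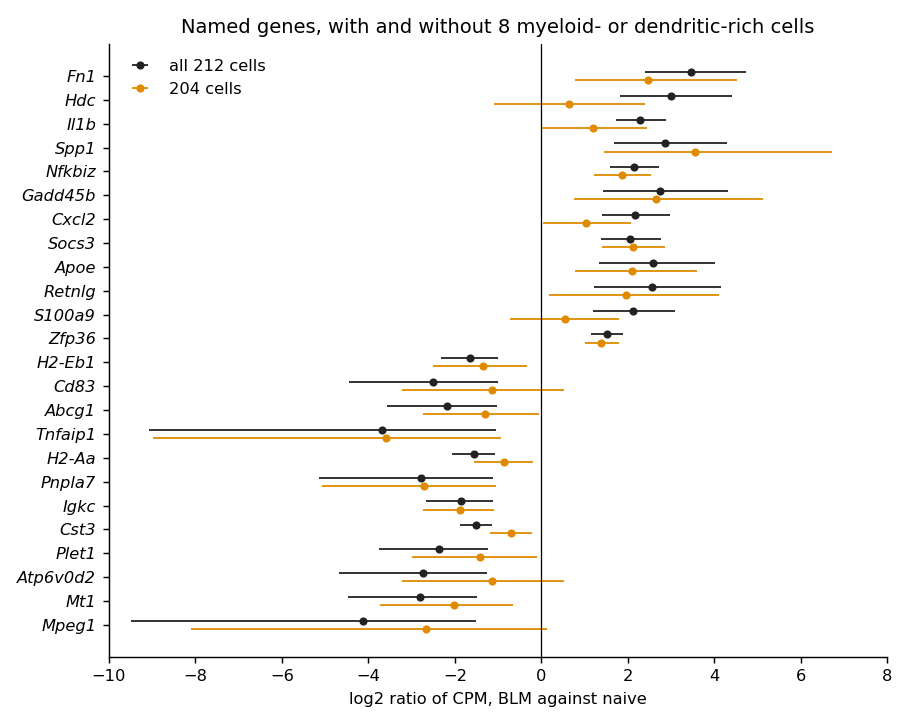
Log2 ratio of CPM in BLM against naive (horizontal axis) for the 24 named genes (vertical axis) with exact 95% intervals, over all 212 naive-like CD8 cells (black) and over the 204 without the myeloid-rich or dendritic-rich cells (orange). Nfkbiz (2.14 and 1.86), Socs3 (2.06 and 2.11) and Zfp36 (1.52 and 1.39) moved little and Hdc (2.99 and 0.65) moved towards 0, and so did S100a9 (2.11 and 0.54), on which the removed cells were chosen.

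On the lower side Mpeg1, Mt1, Atp6v0d2 and Plet1 stood farthest from 0 by the nearer end of the interval, with Cst3 the fifth and H2-Aa the eighth. H2-Aa, an MHC class II chain, had 42 BLM and 191 naive UMIs, with a log2 difference of -1.55 (-2.07 to -1.07), and 77 of the 191 lay in 1 cell. Cst3 (cystatin C) had 77 and 338 UMIs, -1.5 (-1.88 to -1.14), with 107 in 1 naive cell. Without the 8 cells H2-Aa was at -0.86 (-1.56 to -0.19) and Cst3 at -0.70 (-1.19 to -0.22), both under 2-fold.

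Igkc, the immunoglobulin kappa constant gene of B and plasma cells, was lower in BLM without such dependence on single cells. It had 18 UMIs in 16 BLM members and 101 UMIs in 63 naive members, a log2 difference of -1.86 (-2.67 to -1.12), and -1.87 without the 8 cells. No member of either library had more than 6 UMIs of it. The B cell and plasma list as a whole had 0 genes higher and 4 of 6 lower (Igkc, H2-Aa, H2-Ab1 and H2-Eb1). Of all ranked genes 2.93% were higher and 6.9% lower. The list median was -1.51, and -0.89 without the 8 cells. B cells themselves held Igkc at 13800 CPM (BLM) and 14200 CPM (naive), a log2 difference of -0.04. The lower Igkc was not particular to the naive-like cells. Its log2 difference was -2.01 (-2.67 to -1.38) in the effector or memory CD8 cells and -2.22 (-3.05 to -1.46) in the CD4 mirror gate.

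The macrophage list had 3 of 9 ranked genes higher (Apoe, Spp1 and Fn1) and 2 lower (Chil3 and Ear2). Over all ranked genes the shares were 2.93% higher and 6.9% lower. The list had a median of -0.31. Without the 8 cells 5 of its genes were ranked, 1 was higher and 0 were lower, with a median of 0.12. Of the named lower genes outside that list, Plet1 had 7 and 56 UMIs, Atp6v0d2 (a vacuolar proton pump subunit) 4 and 41, Abcg1 (a cholesterol exporter) 7 and 49 and Mpeg1 1 and 27, with 26, 26, 22 and 11 of the naive UMIs in 1 cell. Without the 8 cells the log2 difference of Plet1 was -1.41 (-2.98 to -0.09), and for Atp6v0d2 and Mpeg1 the interval reached 0. Mt1, a metal-binding protein, had 5 and 54 UMIs, a log2 difference of -2.80 (-4.48 to -1.49).

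Pnpla7 and Tnfaip1 were lower in BLM with at most 2 UMIs in any cell. Pnpla7, a lysophospholipase, had 3 UMIs in 3 BLM members and 32 in 28 naive members, a ratio of 6.89 whose log2 interval ran from -5.14 to -1.11. Tnfaip1, an adaptor of ubiquitin ligases, had 1 UMI in BLM and 20 in 16 naive members, with a log2 interval of -9.06 to -1.05. Cd83 had 4 and 35 UMIs, of which 18 lay in 1 naive cell.

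Txnip, an inhibitor of glucose uptake that belongs to the stress list, was lower in BLM and spread over many cells. It had 37 UMIs in BLM and 157 in naive, or 150 against 411 CPM, a log2 difference of -1.45 (-2.01 to -0.93). A UMI was present in 30.3% of BLM and 60.2% of naive members. The log2 difference was -0.92 in effector or memory CD8 cells, -1.42 in the CD4 mirror gate and -0.46 in B cells, so the direction was the same in all 4 populations.

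Most genes of the T cell lists stayed within 2-fold between the libraries. Over all ranked genes 2.93% were 2-fold or more higher in BLM and 6.9% lower. None of the 16 MHC class I genes passed 2-fold (median -0.17), and without the 8 myeloid-rich cells 1 of them was lower. Of the 19 ranked naive and quiescence factors 0 were higher and 1 was lower (Runx1, 7 and 26 UMIs), with a median of -0.08, the same as over all genes. The intervals of 3 of the 19 lay above 0 and those of 4 below it, among them Foxo1, which holds naive T cells in quiescence, at -0.73 (-1.27 to -0.22). Of the 14 lymph node homing genes 0 were higher and 1 lower (Ccr9, a gut homing receptor, 10 and 34 UMIs), with a median of -0.11. Without the 8 cells 0 of the 14 were lower. Of 22 receptor signalling genes 0 were higher and 2 lower (Lcp2 and Dgkz), with a median of -0.13.

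Memory-associated genes had the highest median of the T cell lists. Of 15 ranked genes 3 were 2-fold or more higher (Ly6a, Ly6c2 and Ccr2) and 1 was lower (Anxa2), with a median log2 difference of 0.60, where 2.93% of all ranked genes were higher and 6.9% lower. Without the 8 cells 14 were ranked, 4 higher and 1 lower (median 0.65). Ly6c2 had 113 UMIs in 28 BLM members and 75 UMIs in 29 naive members, 458 against 196 CPM, a log2 difference of 1.22 (0.79 to 1.66). Of the 113 BLM UMIs 80 lay in the 32 cells with 1 Ccl5 or Nkg7 UMI, and in the cells with none Ly6c2 was at 224 CPM in BLM and 165 CPM in naive, under 2-fold. Ly6a (Sca-1), which interferons induce, had 25 and 10 UMIs, and of the 39 BLM UMIs of the chemokine receptor Ccr2 21 lay in 1 cell. Il2rb, the interleukin 2 and 15 receptor chain, was at 580 and 563 CPM, and Eomes and Tbx21, factors of effector and memory cells, had 4 and 6 and 2 and 2 UMIs.

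Genes associated with naive CD8 cells went both ways. Of 20 ranked, Ly6c2 and Treml2 were 2-fold or more higher in BLM and Tspan32, Ramp1 and Pecam1 were lower, with a median of -0.30. Ly6c2 is on the memory list as well, so it was counted in both. Without the 8 cells 2 were higher and 2 lower (median -0.36). The shares over all ranked genes were 2.93% higher and 6.9% lower. Igfbp4, an insulin-like growth factor binding protein of naive T cells, was at 547 and 290 CPM, a log2 difference of 0.91 (0.54 to 1.29). Actn1 was at 490 and 521 CPM.

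Among survival and cytokine receptor genes 2 of 19 ranked were 2-fold or more higher in BLM, Socs1 and Socs3, and 0 were lower (median 0.04). For these lists too the share over all ranked genes was 2.93% higher and 6.9% lower. Of 8 ranked residency genes 3 were higher (Cd69, Rgs1 and Rora) and 0 lower (median 0.03). Ccl3 and Ccl4, T cell and macrophage chemokines, were the 2 higher of 8 ranked cytotoxic and effector genes, and 22 of 22 and 15 of 17 BLM UMIs lay in 1 cell. No gene of the checkpoint (4 ranked), glycolysis (13), cell cycle (7), stress (10) or CD4 lineage (5) lists was 2-fold or more higher, and 1 gene of each was lower (Tox, Pfkp, Mcm6, Txnip and St8sia1). The 4 ranked genes of the T cell receptor complex and the 2 of the NK list stayed within 2-fold, and the gamma delta and the stromal and red cell lists had no ranked gene. Without the 8 cells 1 of the 2 NK genes was lower. Of 6 cytotoxic and effector genes still ranked then, 0 were higher and 1 was lower. Of the 7 cell cycle genes 0 were lower then.

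Interferon-response genes as a group were not higher in BLM. Of 21 ranked genes 1 was 2-fold or more higher (Zbp1, 12 and 9 UMIs) and 2 were lower (Isg15, 5 and 22 UMIs, and Bst2, 7 and 22 UMIs). Their median was -0.32, and of all ranked genes 2.93% were higher and 6.9% lower. Without the 8 myeloid-rich cells 20 were ranked, 0 higher and 1 lower (median -0.44). Cells with UMIs of 3 or more of 11 interferon-induced genes numbered 1 of 89 in BLM (1.12%, 0.0284 to 6.10%) and 2 of 123 in naive (1.63%, 0.198 to 5.75%). With 2 or more genes the numbers were 3 and 9. The naive-like gate thus held few such cells in either library.

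The naive-like cells were next set against the effector or memory CD8 cells within each library, where the 2 populations differ by the rule in Ccl5 and Nkg7. The naive-like cells were lower in receptors, protease inhibitors and factors of cytotoxic cells (Klrc1, Serpinb9, Serpinb6b, Eomes, Tbx21, Prf1) and higher in Itgae, Tubb2a, Rgcc and Itga6. Of 4209 genes with 20 or more UMIs in each library, 20 were 2-fold or more higher in the naive-like cells of both libraries (0.475%) and 23 were lower in both (0.546%). The median log2 difference was 0.02 in BLM and 0.03 in naive. The effector or memory cells were somewhat deeper, with medians of 3350 and 3278 UMIs.

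Klrc1, which encodes the inhibitory receptor NKG2A, had 1 UMI in the naive-like cells of each library and 52 and 31 UMIs in the effector or memory cells. Its log2 interval ran from -10.12 to -2.25 in BLM and from -11.01 to -3.08 in naive. Ly6c2 was at 458 against 1940 CPM in BLM and at 196 against 1030 CPM in naive, log2 differences of -2.09 and -2.39. Serpinb9, which protects killer cells from their own granzyme B, was lower by log2 differences of -2.86 and -2.11 and Serpinb6b by -2.76 and -3.43.

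The factor genes of the cytotoxic programme were scarce on the naive-like side. Tbx21 (T-bet) had 2 UMIs against 20 in BLM and 2 against 22 in naive, and Eomes 4 against 23 and 6 against 27. Hopx was lower by -1.49 and -1.75, Ctla2a, a cathepsin inhibitor, by -1.70 and -2.44, and the long noncoding RNA AW112010 by -1.66 and -1.59. Il2rb was lower by less than 2-fold in both libraries, at -0.65 and -0.66.

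Itgae, the CD103 integrin chain that naive CD8 cells of mice also carry, was higher in both libraries, as was the integrin chain Itga6 (1.19 and 2.46). Itgae had 21 UMIs in 21.3% of the naive-like BLM cells and 10 in 3.01% of the effector or memory cells, a log2 difference of 1.98 (0.83 to 3.23), and 43 UMIs in 26.0% against 7 in 7.58% in naive, 1.91 (0.75 to 3.31). Tubb2a, a beta tubulin, was higher by 1.76 and 1.95, and Rgcc, a regulator of the cell cycle, by 2.33 and 1.11. Gm43698, a gene with no known role, was higher by 1.53 and 1.32.

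Cd74 and H2-Ab1 also stood on the higher side, at log2 differences of 1.33 and 2.01 and of 1.10 and 1.60. Of the naive-like Cd74 UMIs 49 of 71 in BLM and 99 of 204 in naive lay in 1 cell, and the share of cells with a Cd74 UMI was not above that of the effector or memory cells (25.8% against 30.8% in BLM, 41.5% against 42.4% in naive). Igfbp4 was higher by 1.42 and 0.92 and Selenop, a selenium carrier, by 1.46 and 0.72, so that neither passed 2-fold in naive.

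The classical naive genes separated the 2 CD8 populations only moderately. Lef1 was higher in the naive-like cells by 0.70 (0.33 to 1.07) in BLM and 0.63 (0.25 to 1.02) in naive, and Ccr7 by 0.52 and 0.45. Klf2 was higher by 0.85 and 0.38. The 18 naive factors ranked in this comparison had medians of 0.18 and 0.24 and none passed 2-fold in both libraries. Of 18 memory genes 5 were lower in both, among them Eomes, Tbx21, Ly6c2 and Itgb1. Over all genes ranked in this comparison 0.546% were lower in both.

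The CD4 mirror gate held the most similar cells by rule, 117 in BLM and 84 in naive, and used the same naive-like cells as the comparison above. Naive-like CD8 cells were higher in Klrd1, Bend4, Fam241a, Ly6c2, Cd7 and Il2rb and lower in Maf, Gata3, Izumo1r, Trat1, Cd28 and Tmem64. Of 3938 genes ranked in both libraries, 34 were 2-fold or more higher in both (0.863%) and 46 lower in both (1.17%), with medians of -0.10 and -0.02. Median depth in the mirror gate was 2368 and 2365 UMIs.

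Klrd1 (CD94, the partner of NKG2 receptors) had 74 UMIs in the naive-like BLM cells and 3 in the mirror gate, a ratio of 32.9 with a log2 interval of 3.44 to 7.35, and 131 against 2 UMIs in naive, 3.4 to 8.34. It was seen in 42.7% and 52.8% of the naive-like cells, against 1.90% and 2.86% of B cells. Its usual partner Klrc1 had 1 UMI in each library, as given above. Bend4, a nuclear BEN domain protein, had 32 UMIs against 0 in BLM and 45 against 1 in naive. With the 0 set to a floor of 3 UMIs over the group the BLM ratio was 14.2-fold, and its exact log2 interval begins at 3.45. The log2 interval in naive was 2.18 to 10.07. Fam241a was at 563 against 42.5 CPM in BLM and 437 against 44.2 CPM in naive.

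Cd7, an immunoglobulin family receptor, was higher by 3.55 (2.22 to 5.25) in BLM and 1.94 (1.18 to 2.80) in naive. Adgrg5, an adhesion receptor, had 20 against 5 UMIs in BLM, all 5 in 1 cell, and 35 against 0 in naive. The naive ratio was 6.91-fold by the same floor, with a log2 interval from 2.41 upward. Atp8b4, a phospholipid flippase subunit, was higher by 2.5 and 3.0. Gm43698 had 20 and 53 UMIs against 0 in both mirror gates. Its ratios were 8.90-fold and 10.5-fold by that floor, with log2 intervals from 2.72 and from 3.04 upward. Il2rb was higher by 0.86 (0.49 to 1.24) in BLM and by 3.09 (2.33 to 3.95) in naive.

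On the CD4 side, Gata3, the factor of type 2 helper cells that also serves CD4 lineage choice, was lower in the naive-like CD8 cells by -3.15 and -1.99. Maf, a factor of follicular and other helper cells, was lower by -3.15 and -2.34, Izumo1r (folate receptor 4) by -3.98 and -2.34 and Trat1, a receptor-associated adaptor, by -1.94 in both libraries. Tmem64 was lower by -1.89 and -2.23, Itgb3 by -2.75 and -3.34 and Tesc by -2.26 and -3.34. Cd83 was lower by -2.44 and -2.35, but 45 of the 106 mirror-gate UMIs of naive lay in 1 cell. Of the 5 ranked CD4 lineage genes, Cd28 and Gata3 were 2-fold or more lower in both libraries, against 1.17% of all genes ranked in this comparison.

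The mirror gate of BLM was not a naive population. In it Lef1 was at 270 CPM and Ccr7 at 267 CPM, against 462 and 782 CPM in the naive-like CD8 cells of the same library. In naive the mirror gate had 650 and 628 CPM, against 536 and 856 CPM. Cd44 was at 416 CPM in the BLM mirror gate and 146 CPM in the naive-like CD8 cells, and at 150 and 165 CPM in naive. A Lef1 or Ccr7 UMI was present in 68 of 117 BLM and 71 of 84 naive mirror-gate cells, and in 76 of 89 and 117 of 123 naive-like CD8 cells.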

How the data were processed

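Single-cell libraries of sorted CD45+ lung cells were made by the authors with the BD Rhapsody whole transcriptome kit, 1 for BLM and 1 for naive. The deposited values are raw UMI counts per cell and gene, which per the file headers were made by version 1.8 of the BD Rhapsody WTA pipeline with the GRCm38 build and GENCODE vM19, after its error correction of UMIs. The authors' later SeqGeq filtering and Seurat integration were not used here. The tables held 4714 BLM and 4062 naive barcodes with 22490782 and 18019004 UMIs, of which 4526 and 3925 cells passed (200 or more genes, at most 15% mitochondrial UMIs). A gene listed in 1 table was counted as 0 in the other.

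Counts were summed over the cells of a gate and library and given as CPM. Levels have exact Poisson intervals, shares exact Clopper-Pearson intervals and log2 ratios the exact conditional interval, all at 95%. With 1 library per group no test was possible and a gene was called at 2-fold or more, among genes with 20 or more UMIs over both sides and outside the 11 gate genes. A count of 0 was set to a floor of 3 UMIs. Thinning to 1000 UMIs used the exact hypergeometric expectation per gene and the mean of 20 draws for the gate. The ratio routine was tested on simulated counts. Named were the 12 genes at each end for BLM against naive and the 8 at each end for the comparisons of gates, where the less extreme of the 2 libraries decided, together with the gate genes, the markers and members of 23 fixed gene lists. The gate, the lists and the members were chosen with earlier results of these data known. Genes discussed beyond this rule (Txnip among the examples of its list, the set of 6 response genes, the 8 myeloid-rich cells) were chosen after their values were seen. A few genes that the rule or the lists name are not reported here. Gene positions and promoters are those of RefSeq for GRCm38.p6. Alternatives covered the quality limits, Scrublet doublet scores (scanpy 1.11.5), the gate limits, the UMI minimum, the CPM denominator, centring, equal weight of cells and genes absent from 1 table. Python 3.11.15, numpy 2.4.6, scipy 1.17.1, pandas 2.3.3 and matplotlib 3.10.9 were used.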

Additional observations from a re-analysis of the deposited data

Results flagged for a closer look

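Among the named genes and the list members past 2-fold, 8 differed between BLM and naive in one direction in the naive-like CD8 cells and in the opposite direction in another T cell population, with both intervals clear of 0. The difference between the populations was not tested. Of the other list members and genes past 2-fold between gates 10 met the same condition, among 468 genes looked at in all. Zfp36 was higher in BLM by 1.52 on the log2 scale in the naive-like cells and stood at -0.39 in the CD4 mirror gate. Igfbp4 was at 0.91 against -0.36 there, and Ramp1 at -1.03 against 1.38 (12 and 38 UMIs against 38 and 10). Rora was at 1.3 in the naive-like cells and at -1.33 in the effector or memory CD8 cells. Apoe was at 2.58 in the naive-like cells (27 against 7 UMIs) and at -3.47 in the CD4 mirror gate (8 against 61 UMIs). Retnlg was at 2.57 against -2.57 in the effector or memory CD8 cells, S100a9 at 2.11 against -1.49 and S100a8 at 1.37 against -1.08 there. The limit for myeloid-rich cells was set on S100a9 among other genes. Cells past that limit held 69.2% of the S100a9 UMIs in BLM naive-like cells and 80.7% in naive effector or memory cells. The CD4 mirror gate of naive includes 4 such cells, with 14.6% of its UMIs. The part of such cells in the 8 opposite directions was not tested further.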

How the results depend on the processing

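No paired analysis was possible because each group held 1 library, and no replicate could be left out. Of 371 values of named genes under the alternatives 335 moved by less than their interval, 34 moved farther and 2 lost their direction, Zfp36 (-0.58) and Cst3 (0.0), both when every cell with a UMI of Lyz2, S100a8, S100a9, Spp1, C1qa, C1qb or Apoe was left out. That setting left 6 BLM and 8 naive members, gave shares of 2.52% of BLM cells and, of CD8-gated naive cells, 72.7%, put the interferon-high cells of both libraries at 0.0%, and brought the genes past 2-fold to 15 higher and 13 lower in BLM, 3 and 3 against effector or memory cells and 4 and 0 against the CD4 mirror gate. With no Ccl5 or Nkg7 UMI the members were 1.26% of BLM and 1.91% of naive cells and 25.7% and 39.7% of CD8-gated cells, with 12 genes higher than in the effector or memory cells. With 2 or more Cd8a and Cd8b1 UMIs the BLM share was 1.35%. Thinning before the gate gave 1.04% and 1.53% of cells and 61.9% and 84.6% of CD8-gated cells. Interferon-high BLM cells were 0.0% with 2 or more Cd8a and Cd8b1 UMIs. A minimum of 50 UMIs per gene gave 25 higher and 41 lower in BLM, 4 and 5 against effector or memory cells and 12 and 14 against the mirror gate. With no minimum the counts were 617 and 1144, 126 and 117, and 136 and 193. Against the mirror gate 30 genes were lower with ribosomal, mitochondrial and Malat1 UMIs out of the denominator, and 29 without the myeloid-rich cells, an alternative chosen after seeing the data. The shares were lower in BLM under every alternative run. With 89 and 123 members, genes under 20 UMIs could not be ranked.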
